A study of Mus musculus with 37 samples.

Results

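The main axis of variation of brown adipose tissue (BAT) transcripts across BXD mice was described here through the strains at its ends. The first principal component was taken over the 41155 probe sets of 35 BXD arrays that are not array controls, each probe set being centred on its mean over strains and not scaled. It was oriented so that its correlation with *Lep*, the gene of the adipocyte hormone leptin, was positive. The 12 strains with the highest scores form the high end and the 12 with the lowest scores the low end, so that 24 of 35 strains enter the comparison and 11 lie in the middle. The ends were therefore selected on the same probe sets that are described between them. Differences of genes between the ends are given as descriptions without a test, and the sign of *Lep* is fixed by the orientation. Only the 190 array controls, which had no part in the choice, were tested.

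Each array held RNA of 1 strain, combined in equal amounts from about 5 males that had been fed chow for life, fasted overnight and killed at 29 weeks. C57BL/6J and DBA/2J, the parents from which all BXD recombinant inbred strains were bred, had 1 array each under the same diet and age and took no part in the component. There is no replicate within a strain, and an array holds the mean of a cohort, so strain and cohort cannot be told apart. Levels are in the authors' rescaled units, which set the mean of every array to 8 and its standard deviation to 2. One unit would be a doubling only if the standard deviation before rescaling had been 2 on a log2 scale, and the log base is not given in the sources used here. In whole tissue, fewer cells of a type and less RNA per cell cannot be told apart.

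BAT burns fatty acids in mitochondria uncoupled by UCP1 and stores lipid in many small droplets, under control of sympathetic nerves. White fat stores lipid in large droplets and secretes leptin in proportion to its size. Brown fat depots border on white fat and muscle, and a dissected depot can hold some of either. A first principal component ranks samples along the direction of greatest variance, without saying what lies behind it. The array carries its own gauge of background, 23 bins of 25-base probes that match no mouse sequence and are sorted by their number of G or C bases, from 3 to 25.

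The labelled tissue was borne out by its markers. *Ucp1*, the uncoupling protein that defines brown fat, lay between 14.82 and 15.67 at both ends, near the top of the scale. Libraries that stand apart did so in markers of other tissues. The mean of 11 liver genes was 12.1 in BXD70, a strain of the low end, against 6.90 to 8.12 in the other 34 strains, and albumin (*Alb*) stood at 14.96 there against a median of 7.84 elsewhere. The mean of 20 fast skeletal muscle genes ran from 9.72 in BXD65, a strain of the high end, to 13.4 in BXD97, also of the high end. Between any pair of arrays the correlation over probe sets was at least 0.968.

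**Figure D1:**
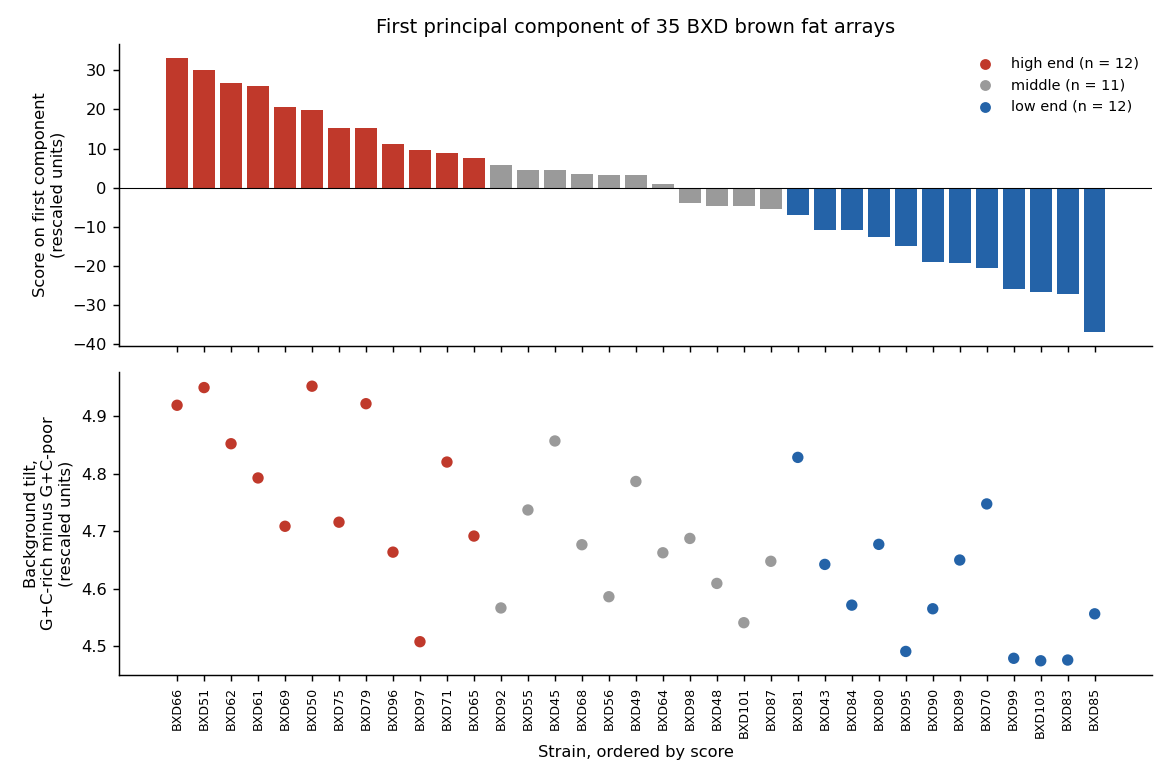
Upper panel, score of each of the 35 strains on the first component, in rescaled units, ordered from highest to lowest. Lower panel, the base composition tilt of the same arrays, the mean of background bins with 15 to 25 G or C bases minus that of bins with 3 to 13. The scores run from 33.2 to -36.9 without a gap, and the tilt, which was not used to rank strains, is highest among strains of the high end.

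The first component held 9.00% of the variance, little more than the second with 7.20% and the third with 5.93%. Scores at the high end ran from 33.2 in BXD66 through 30.2 in BXD51, 26.7 in BXD62, 25.9 in BXD61, 20.5 in BXD69 and 19.8 in BXD50. They went on with 15.4 in BXD75, 15.2 in BXD79, 11.2 in BXD96, 9.56 in BXD97, 8.89 in BXD71 and 7.55 in BXD65. At the low end they ran from -36.9 in BXD85 through -27.1 in BXD83, -26.6 in BXD103, -26.0 in BXD99, -20.4 in BXD70 and -19.2 in BXD89. The rest of that end was BXD90 at -19.0, BXD95 at -14.8, BXD80 at -12.5, BXD84 at -10.9, BXD43 at -10.7 and BXD81 at -6.95. No gap set either end apart. The last strain inside the high end, BXD65, was followed by BXD92 at 5.70, and the last inside the low end, BXD81, was preceded by BXD87 at -5.46. *Lep* correlated with the component at r = 0.34 over 35 strains. The third component, oriented in the same way, carried more of it (r = 0.69), and the second followed the mean of the fast muscle genes (r = 0.83).

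The axis was carried by many probe sets that each shifted a little. Only 6 of 41155 probe sets (0.0146%) were higher in every strain of the high end than in any strain of the low end, and 1 (0.00243%) was lower in the same way. Since the component chose the strains, nothing is read from these shares. With each array centred on its median, the same 24 strains were at the ends, but 2 probe sets were higher and 5 lower in this way. The median absolute difference between the ends was 0.113 units and the 95th percentile 0.389. Differences of 0.5 units or more were found for 214 probe sets that were higher and 735 that were lower at the high end. Of the 735 lower ones, 563 had no gene symbol (76.6%), while 38 of the 214 higher ones had none (17.8%). Probe sets without a symbol made up 31.01% of the array, 45.9% of the total variance and 48.0% of the squared loadings. Their share of the loadings was thus near their share of the variance. Of the 100 largest loadings 73 belonged to them. Probe sets with a mean at or below 7.94, the 95th percentile of 1128 olfactory receptor probe sets, held 55.7% of the squared loadings. Only 19436 of the 41155 probe sets lay above that limit, so the dim ones were also the larger part of the array. Olfactory receptors are genes of the nose that serve here as a gauge of background.

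Per gene, with the brightest probe set standing for each of 24657 genes, 147 (0.596%) were higher at the high end by at least 0.5 units and 65 (0.264%) were lower. Among the 13524 genes above background, 144 (1.06%) were higher and 37 (0.274%) lower by that size, and 50.1% had the higher mean at the high end. Of the 144 higher genes, 92 correlated with the mean of the fast muscle genes at 0.8 or more over the 35 strains and 29 at under 0.3. All 37 lower genes were under 0.3. Over all 13524 genes above background, 236 were at 0.8 or more and 12146 under 0.3. The 29 ranged from *Lep*, *Nnat* and *Mest* to *Ear11*, a ribonuclease of eosinophils and macrophages, *Ccnd1*, a cyclin, and *Thbs1*, a matrix protein.

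The non-overlapping genes above background included *Il28a*, *Ntsr2* and *C1qtnf6*. *Il28a*, which encodes the antiviral cytokine interferon lambda 2, lay between 10.13 and 10.76 with a median of 10.37 in the 12 high strains. In the low strains it lay between 9.66 and 10.11 with a median of 9.94, and its correlation with the score, 0.91, was the highest of any gene with a symbol. *Ntsr2*, a receptor for neurotensin in the brain, ran from 9.23 to 9.71 at the high end and from 8.75 to 9.21 at the low end. *C1qtnf6*, a secreted protein of the adiponectin family, ran from 8.52 to 8.90 against 7.93 to 8.47. The differences of means were 0.48, 0.42 and 0.39 units in this order, and 0.25, 0.25 and 0.26 with the tilt of the background, defined with the array controls, regressed out of the values. No probe set was free of overlap between these ends after that regression. The background limit of 7.94 takes no account of base composition. The background bins themselves reached 10.40 in the bin of 25 G or C bases, and the means of these genes, 8.45 to 10.14, lay within their range. So did the median over all genes above background, 9.47. The base composition of the probes for these genes was not measured here, and a part of the background in their values was not tested.

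Below background, *Chtf18* and *Kcnk18* were the other named probe sets that were higher without overlap (by 0.29 and 0.30 units), and *Gm19910* the one that was lower (by 0.34 units on the rescaled scale, from a median of 6.39 to 6.09). Other genes among the 11 that tracked the score most closely are named after their values were seen. They included *Crybb1*, a crystallin of the eye lens, with r = 0.83 and a difference of 0.28 units, and *Atp4a*, the proton pump of the stomach, with r = 0.80 and 0.28 units. *Gpr6*, a receptor of the striatum, had r = 0.80 and 0.40 units. These differences were 0.17, 0.16 and 0.20 units with the tilt regressed out. In the lists for brown and white fat the closest gene was *Peg10*, an imprinted gene of retrotransposon origin, with r = 0.80. Its difference was 0.37 units, and 0.18 with the tilt regressed out.

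On the opposite side the genes named here were also chosen after their values were seen, and others such as *Tmem68* (r = -0.77), *Hcfc2* (r = -0.76) and *Zxdb* (r = -0.75) lay between them in rank. *Msh6*, a DNA mismatch repair protein, had r = -0.78, and *Rab3gap1*, a regulator of membrane traffic, r = -0.77. *Rif1*, which acts in replication timing, had r = -0.74, as did *Rictor*, a subunit of mTOR complex 2. Their differences were between -0.21 and -0.34 units, and between -0.11 and -0.17 with the tilt regressed out. The 346 genes above background with r of at least 0.6 and the 195 with r of at most -0.6 also differed in length. The median genomic span in the RefSeq annotation of GRCm38.p6 was 10.997 kb for the first (284 matched), 34.5 kb for the second (166 matched) and 21.1 kb for all genes above background.

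**Figure D2:**
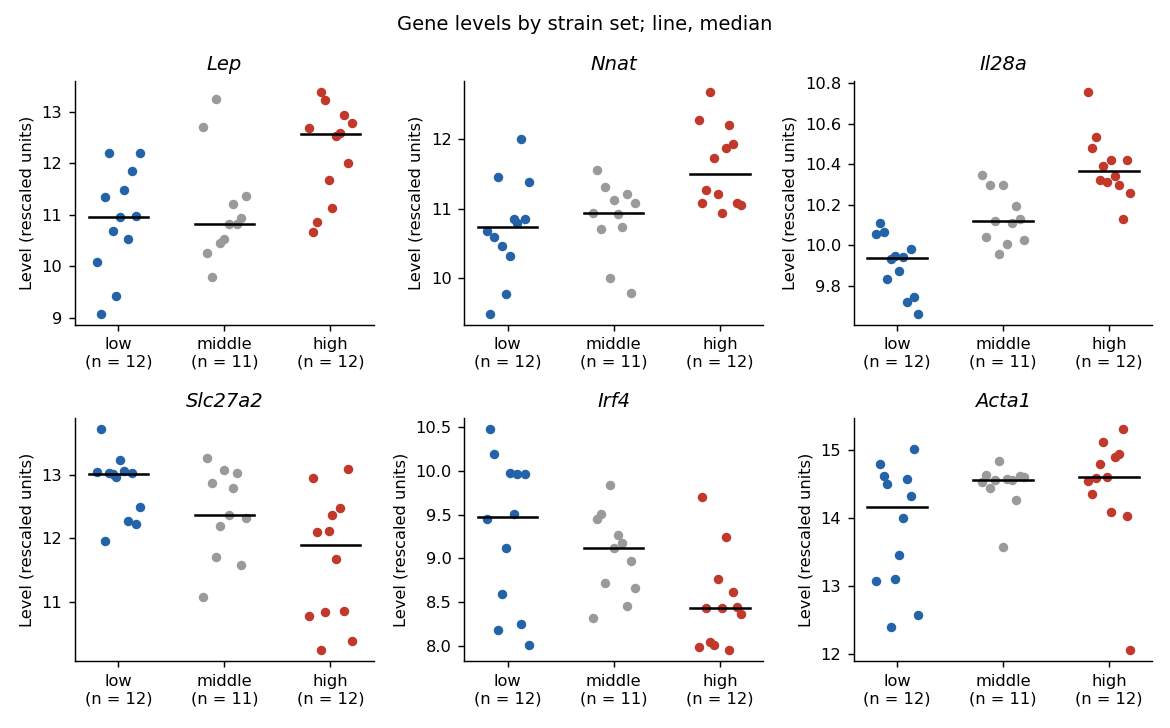
Level of 6 genes in each strain, in rescaled units, for the low end, the middle and the high end, with a line at the median. *Il28a* does not overlap between the ends, whereas *Lep*, *Nnat*, *Slc27a2*, *Irf4* and *Acta1* do. *Lep* has medians of 10.96 in the low, 10.82 in the middle and 12.57 in the high strains.

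Among the higher genes that did not follow muscle, *Lep* had the largest difference. *Lep* ran from 10.66 to 13.38 with a median of 12.57 at the high end, and from 9.08 to 12.20 with a median of 10.96 at the low end. The difference of means was 1.31 units, against standard deviations of 0.93 and 1.01 (n = 12 each). *Lep* did not follow the axis evenly, and the 11 middle strains had a median of 10.82, below that of the low end. A level over 12 was found in 8 high strains, 2 middle strains and 2 low strains. *Nnat*, the imprinted gene of neuronatin, ran from 10.94 to 12.68 at the high end and from 9.49 to 12.01 at the low end, 0.89 units apart in means. All 12 high strains lay above the median of the low strains, though the ranges overlapped. *Mest*, an imprinted gene that marks fat expansion, was 0.73 units higher and *Sfrp5*, a WNT inhibitor of adipocytes, 0.60 units higher. All 10 genes of the list for white fat and its expansion had the higher mean at the high end, with a median difference of 0.46 units, beside a median of 0.00 over all genes above background. *Lep* is one of the 10 and its sign was set by the orientation, which also favours the sign of genes that covary with it. Without *Lep*, 9 of 9 were higher with a median of 0.41 units. The list mean ran from 9.99 to 11.08 in high strains and from 9.48 to 10.53 in low strains. With the tilt regressed out the median of the 10 was 0.44 units. Genes that mark adipocytes in general lay on both sides, with 7 of 12 higher and a median of 0.02 units. *Retn*, the hormone resistin, differed by -0.25 units, *Cfd*, the serum protease adipsin, by -0.23 and *Adipoq*, adiponectin, by -0.05.

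Muscle genes made up most of the large positive differences. All 20 genes of the fast skeletal muscle list had the higher mean at the high end, and 18 of them by at least 0.5 units, with a median of 0.62. *Myh2*, the myosin of fast oxidative fibres, was higher by 0.87 units, and *Casq1*, the calcium store protein of fast fibres, by 0.74. In the slow muscle list 9 of 10 genes were higher, with a median of 0.58 units. *Myoz2*, a protein of the Z disc, differed by 0.90 units and *Myh7*, the slow myosin, by 0.75. *Acta1*, skeletal muscle actin, ran from 12.05 to 15.31 at the high end and from 12.40 to 15.01 at the low end, so that the ranges were nearly the same. The list mean of fast muscle genes had a median of 12.54 in high strains, 12.48 in middle strains and 11.93 in low strains. Its correlation with the score was only 0.33, and 4 of the 5 lowest strains for muscle, BXD95, BXD85, BXD81 and BXD90, were at the low end. The lowest of all was BXD65 of the high end. When the fast muscle mean was regressed out of all probe sets, 20 of the 24 strains kept their end. When the list's own genes were left out of the component its median was 0.46 units, and when probe sets were scaled to unit SD before the ends were taken it was 0.06.

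Several stromal and immune lists were also on the high side. All 20 fibroblast and fibrillar matrix genes had the higher mean there, with a median of 0.36 units. *Fbn1*, fibrillin of elastic fibres, was higher by 0.54 units, and *Pi16*, a marker of adventitial fibroblasts, by 0.52. *Col1a1*, a chain of type I collagen, ran from 10.59 to 11.53 at the high end and from 10.07 to 10.89 at the low end. Of 14 macrophage genes 13 were higher, with a median of 0.26 units. The complement gene *C1qb* and the endosomal marker *Cd68* led with 0.38 and 0.37 units. The macrophage list mean did not follow the axis evenly, with medians of 9.45 in high, 9.19 in middle and 9.32 in low strains. The median was 0.20 units for basement membrane genes (8 of 10 higher), 0.18 for mast cell genes (6 of 7) and 0.17 for Schwann cell genes (9 of 10). It was 0.165 for genes of sympathetic neurons (10 of 11). The median was 0.09 units for the neuron genes and 0.11 for the mast cell genes with the tilt regressed out. Of these neuron genes 8 of 11 and of the mast cell genes 4 of 7 were not above background, and the 9158 probe sets of any kind with a mean from 7 to 8 had a median difference of 0.09 units. Medians were smaller for neutrophil (0.12 units), B lymphocyte (0.11), mural and smooth muscle (0.09), T lymphocyte (0.07), interferon response (0.07) and endothelial genes (0.05). No member of any of these lists was free of overlap between the ends. Since only 7 of 41155 probe sets were, nothing is read from this.

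Immediate early genes, which are induced within minutes by stress or signals, were higher in 11 of 12 cases with a median of 0.31 units. *Dusp1*, a phosphatase of MAP kinases, led with 0.61 units, followed by *Fosb* with 0.51 and *Fos* with 0.47. With the tilt regressed out the list's median was 0.17 units. MHC class II genes were higher in 7 of 8 cases with a median of 0.14 units, which became 0.05 in the same way. Since the tilt and the score correlate, this regression takes away some of any difference that follows the score, whatever its source, and the part of the tilt in these lists was not tested.

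Lists for the working tissue of brown fat had medians near 0, though 2 mitochondrial lists had most of their genes on the lower side. The thermogenic core had 8 of 15 genes higher and a median of 0.01 units. Its largest differences were in *Dio2*, which activates thyroid hormone (0.61 units), and *Mpzl2* (-0.44 units). *Dio2* ran from 9.20 to 10.94 at the high end and from 8.17 to 11.42 at the low end. After regression of the tilt *Dio2* differed by 0.23 units and *Mpzl2* by -0.31, while *Elovl3*, an elongase of very long chain fatty acids, went from -0.22 to -0.69. *Ucp1* differed by 0.13 units, and by 0.01 with the tilt regressed out. De novo lipogenesis had a median of 0.01 (11 of 21 higher), fatty acid oxidation -0.01 (7 of 17), glucose use 0.05 (7 of 13) and cholesterol synthesis -0.02 (9 of 22). Within the last, *Fdft1*, squalene synthase, was lower by 0.52 units. The respiratory chain had 26 of 80 genes higher and a median of -0.04 units, and its 1 gene beyond 0.5 units was *Cox6a2* (0.74), the muscle form of a cytochrome oxidase subunit. The mitochondrial ribosome had 16 of 76 genes higher with a median of -0.07 units. Of all genes above background 50.1% were higher. Heat shock, clock, hypoxia and endoplasmic reticulum chaperone lists had medians between -0.09 and 0.01 units, and the list of AHR targets, such as *Nqo1* (0.16 units), a median of 0.03.

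**Figure D3:**
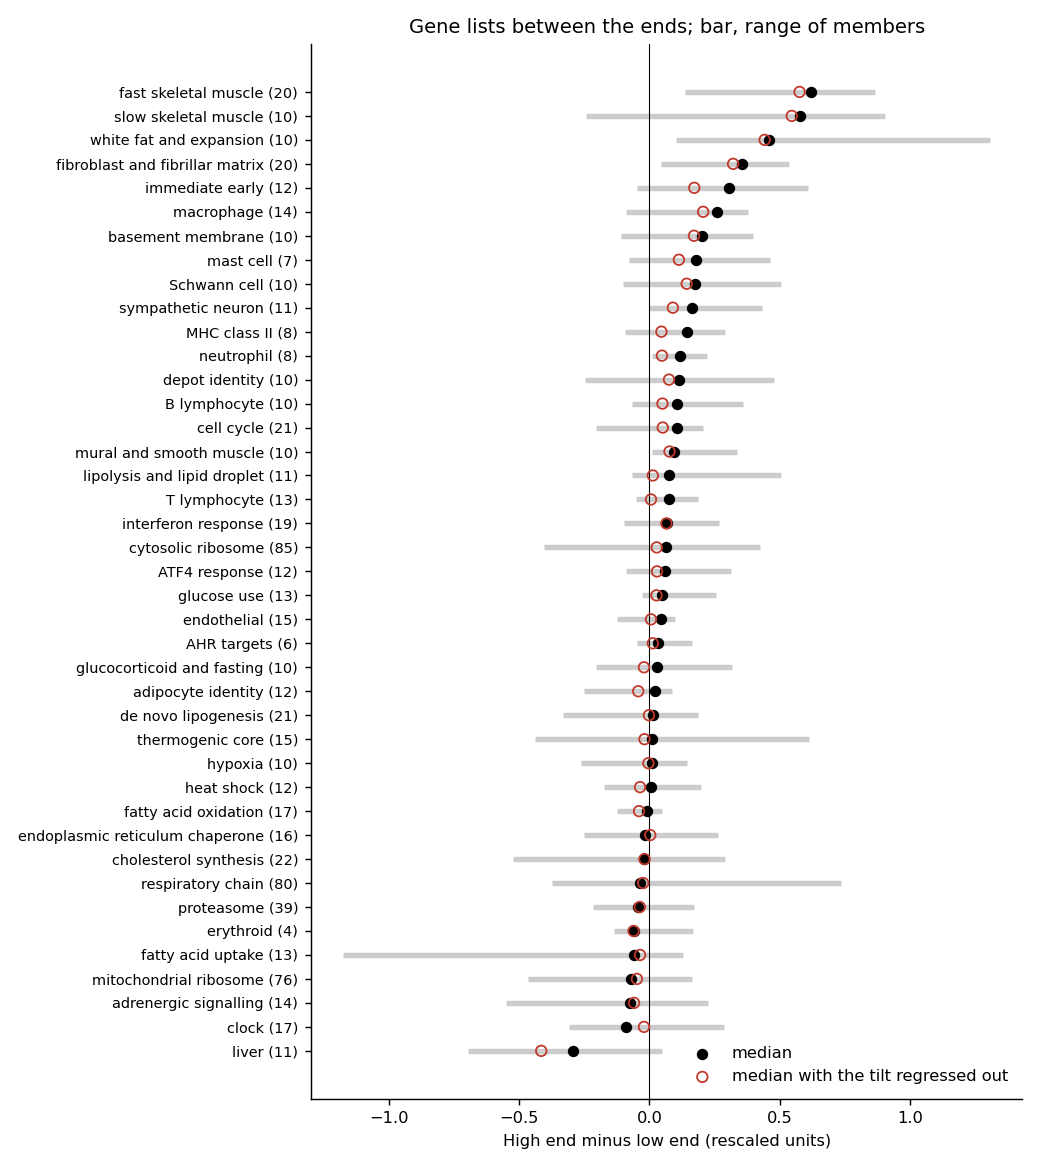
Difference of means between the ends for the members of 41 gene lists, in rescaled units, with the number of genes found in parentheses. Grey bars span the lowest and highest member, filled circles mark the median, and open circles the median with the background tilt regressed out. Muscle, white fat and fibroblast lists lie above 0.3, thermogenic, lipid synthesis and oxidation lists lie at 0, and the liver list lies lowest at -0.29, a value that became 0.105 without BXD70.

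On the low side *Slc27a2* stood out among genes of fat metabolism. It encodes an acyl-CoA synthetase that takes up and activates very long chain fatty acids. At the low end it ran from 11.95 to 13.72 with a median of 13.01, and at the high end from 10.24 to 13.09 with a median of 11.89. The difference of means was -1.175 units, with standard deviations of 0.50 at the low and 0.998 at the high end, and -1.13 with the tilt regressed out. Of the 12 high strains 6 lay below the lowest of the low strains, and the other 6 overlapped with them. Other genes of fatty acid uptake differed less. *Acsl5*, another acyl-CoA synthetase, differed by -0.41 units and the list of 13 by a median of -0.06.

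*Cyp2e1*, a cytochrome P450 of liver and fat, differed by -0.90 units and ran from 9.11 to 12.41 at the high end against 10.25 to 13.15 at the low end. *Acsm3*, a mitochondrial medium chain acyl-CoA synthetase, differed by -0.70 units, *Gstt2*, a glutathione transferase, by -0.68, and *Rbp7*, a retinol binding protein of endothelium and fat, by -0.67. For *Gstt2* none of the 12 high strains was above the median of the low strains, 10.63. *Irf4*, a transcription factor of lymphocytes that also acts in fasting and thermogenesis of fat, differed by -0.81 units. It ran from 8.01 to 10.48 at the low end and from 7.95 to 9.70 at the high end. *Erbb4*, a neuregulin receptor, differed by -0.77 units. *Slc27a2* and *Acsl5* belong to the lists used here, and the other genes of the low side were named after their values were seen.

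The liver list was lower in 10 of 11 genes, with a median of -0.29 units, and this rested on BXD70. *Serpina1c*, a serum protease inhibitor, stood at 13.44 in that array and at 5.20 to 8.23 elsewhere, and *Hamp*, the iron hormone hepcidin, at 11.64 against 4.47 to 6.35. With BXD70 dropped from the low end, the list's median was 0.105 units. The same omission left *Slc27a2* at -1.15, *Cyp2e1* at -0.81, *Acsm3* at -0.75, *Irf4* at -0.79 and *Lep* at 1.36 units.

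A few of the largest differences came from genes with separate high and low groups of strains. *Rufy4* differed by 1.70 units, with no strain between 9.35 and 12.29. The upper group held 8 high, 8 middle and 3 low strains, and the parents lay in opposite groups, C57BL/6J at 8.77 and DBA/2J at 13.12. *Mela*, a melanoma antigen of retroviral origin, differed by -2.44 units, with no strain between 8.36 and 12.62 and an upper group of 5 high, 5 middle and 11 low strains. DBA/2J was at 12.73 and C57BL/6J at 7.82. For such genes a difference of means reflects how many strains of each group fell at either end. *Fggy*, a carbohydrate kinase, was not clearly split, with a gap of only 0.35 units, from 7.53 to 7.89. Above this gap lay 10 high, 10 middle and 5 low strains. C57BL/6J was above it (8.87) and DBA/2J below (7.50).

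Among genes with 10 or more probe sets, those of 1 gene could differ widely in size. *Anapc1*, a subunit of the anaphase promoting complex, had 52 probe sets whose differences ran from -1.54 to 0.37 units, 39 of them negative. *Itch*, a ubiquitin ligase, had 24, from -0.937 to 0.095 units, with 22 negative, and its brightest differed by -0.13. *Arfgef1*, an exchange factor of the Golgi, had 35, from -0.83 to 0.12, with 30 negative. In the other direction, *4933409K07Rik* had 20 probe sets, all positive, with a median of 0.49 units (0.20 with the tilt regressed out), and *Ccl19*, a chemokine, had 12, all positive, with a median of 0.14. *Rnf220*, a ubiquitin ligase, had 5 of 25 negative, from -0.78 to 0.51 units. The multicopy genes *Sly*, *Ssty1* and *Ssty2*, which are known from spermatids, were lower in 45 of 45, 10 of 10 and 14 of 14 probe sets, with medians of -0.39, -0.39 and -0.44 units. With the tilt regressed out these were -0.20, -0.20 and -0.18. Copies of a family can share probes, so their probe sets are not independent.

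The difference of miRNA genes between the ends varied with the base composition of their hairpins. Probe sets for 412 of 526 miRNA genes were matched by symbol to a hairpin in RefSeq, GRCm38.p6. The hairpins with the largest differences in either direction are shown, with G and C in capitals, because the difference between the ends varied with this property. Of the 8 shown, *Mir877*, *Mir194-2*, *Mir186*, *Mir3094* and *Mir3066* had means below the background limit. The first 4 were higher at the high end and the last 4 lower.
*Mir877* (chr17:35960730-35960814, minus strand): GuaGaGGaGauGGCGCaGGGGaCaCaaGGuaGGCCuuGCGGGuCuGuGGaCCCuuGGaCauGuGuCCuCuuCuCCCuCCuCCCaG
*Mir194-2* (chr19:6264643-6264728, plus strand): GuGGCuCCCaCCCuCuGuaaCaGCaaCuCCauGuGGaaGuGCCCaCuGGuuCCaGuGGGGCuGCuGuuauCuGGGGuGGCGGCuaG
*Mir1945* (chr16:11254368-11254445, minus strand): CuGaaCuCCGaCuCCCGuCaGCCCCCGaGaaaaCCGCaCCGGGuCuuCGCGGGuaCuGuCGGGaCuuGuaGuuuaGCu
*Mir483* (chr7:142654924-142654996, minus strand): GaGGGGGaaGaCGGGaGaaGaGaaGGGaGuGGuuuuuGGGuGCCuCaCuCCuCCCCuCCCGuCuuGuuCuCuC
*Mir1904* (chr13:109903809-109903888, plus strand): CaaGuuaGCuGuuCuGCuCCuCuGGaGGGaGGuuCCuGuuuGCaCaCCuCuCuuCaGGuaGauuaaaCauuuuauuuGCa
*Mir186* (chr3:157544279-157544349, plus strand): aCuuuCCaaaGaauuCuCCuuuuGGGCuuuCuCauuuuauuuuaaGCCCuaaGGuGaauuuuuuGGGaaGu
*Mir3094* (chr4:40993695-40993758, plus strand): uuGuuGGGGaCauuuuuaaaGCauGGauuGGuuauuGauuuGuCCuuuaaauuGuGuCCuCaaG
*Mir3066* (chr12:17355392-17355474, plus strand): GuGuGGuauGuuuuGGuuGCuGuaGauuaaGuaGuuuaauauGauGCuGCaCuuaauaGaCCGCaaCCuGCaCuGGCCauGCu

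G or C made up 61.2% of the *Mir877* hairpin, 60.5% of *Mir194-2*, 60.3% of *Mir1945* and 58.9% of *Mir483*. The shares were 43.8% in *Mir1904*, 33.8% in *Mir186*, 34.4% in *Mir3094* and 42.2% in *Mir3066*. *Mir877* ran from 7.09 to 8.56 at the high end and from 7.23 to 7.99 at the low end, a difference of 0.46 units. *Mir186* ran from 6.42 to 7.98 at the high end and from 7.43 to 8.68 at the low end, a difference of -0.61 units. The others differed by 0.43, 0.40 and 0.39 units on the high side and by -0.74, -0.48 and -0.44 on the low side. After regression of the tilt *Mir877* differed by 0.13 units and *Mir186* by -0.27, and the other high ones by 0.28, 0.14 and 0.29 units. *Mir1904* then differed by -0.645 units, *Mir3094* by -0.255 and *Mir3066* by -0.251.

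Over all 412 hairpins the difference between the ends was larger where the share of G and C was higher (Pearson's r = 0.42 and Spearman's rho = 0.43 across genes, which are not independent). Median differences were -0.05 units for 65 hairpins under 40%, -0.04 for 71 from 40 to 45%, and 0.00 for 87 from 45 to 50%. They were 0.07 for 89 from 50 to 55%, 0.11 for 48 from 55 to 60%, and 0.20 for 52 of 60% or more. In the last class 46 of 52 had the higher mean at the high end, and in the first 24 of 65. With the tilt regressed out, the median of the last class was 0.08 units and r was 0.25. Only 88 of the 412 lay above background, and hairpins richer in G and C also had the higher levels (r = 0.47). Small nucleolar RNAs, which guide modification of ribosomal RNA, were lower at the high end in 71 of 100 cases with a median of -0.10 units, and of 0.00 with the tilt regressed out.

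**Figure D4:**
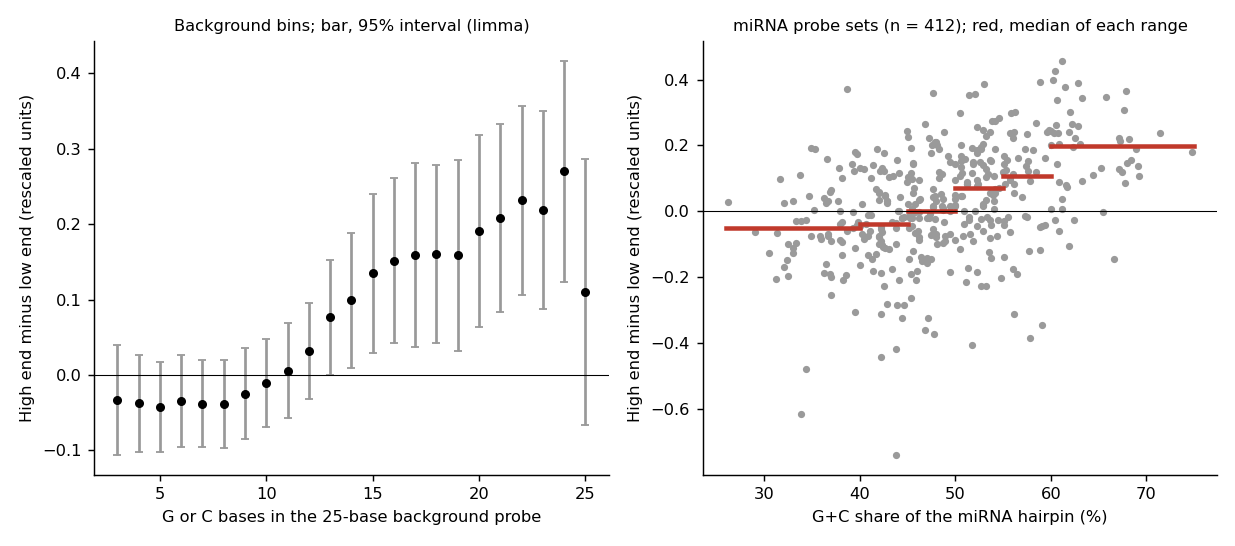
Left, difference of means between the ends for the 23 background bins against the number of G or C bases in their 25-base probes, with 95% intervals from limma. Right, the same difference for 412 miRNA probe sets against the G+C share of the hairpin, with a red line at the median of each range. Both run from below 0 at low G+C to above it at high G+C, with 0.27 units in the bin of 24 bases and a median of 0.20 in hairpins of 60% or more.

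The background probe sets, which match no mouse transcript, were measured apart from the choice of strains. Their level ran from 4.08 in the bin of 3 G or C bases to 10.40 in the bin of 25 over all strains. Bins of 3 to 10 G or C bases had means between 0.01 and 0.04 units lower at the high end, and bins of 11 and more had the higher mean there. In the bin of 22 the mean was 10.40 ± 0.15 at the high end and 10.17 ± 0.15 at the low end (SD, n = 12 each), and in the bin of 24 the difference was 0.27 units. With limma over 190 controls and Benjamini-Hochberg adjustment, 0 of 190 (0%) passed an adjusted p of 0.05. At an unadjusted p under 0.05 there were 41 of 190, of which 34 were higher at the high end. They comprised 11 of 23 background bins, all 11 higher, 20 of 92 ERCC probe sets, 7 of 36 hybridization controls and 3 of 39 poly-A controls. The lowest adjusted p from limma was 0.065 in 3 of these 4 classes. The methods' t-test and a permutation test each gave 0 calls after adjustment and 44 before. With the score of all 35 strains as a covariate in place of the ends, limma called 31 of 190.

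The tilt, a summary chosen after the values were seen, puts the pattern into a single value per array. It is the mean of the bins with 15 to 25 G or C bases minus the mean of those with 3 to 13. At the high end it ran from 4.51 to 4.95 with a median of 4.81, and at the low end from 4.48 to 4.83 with a median of 4.57. The ranges overlapped, and 11 of 12 high strains lay above the median of the low strains. The difference of means was 0.194 units, larger than the standard deviations of 0.137 and 0.115. A two-sided permutation test with 100000 resamples gave p = 0.0014, which takes no account of the choice of the tilt after the values were seen. Among the 12 high strains BXD97 alone, at 4.51, lay below the median of the low strains.

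Across all 35 strains the tilt correlated with the score at r = 0.72 (rho = 0.69). A permutation test gave p = 1e-05, the smallest that 100000 resamples can give, and 5e-05 after adjustment over 5 summaries of the controls. Neither value allows for the choice of the tilt after the values were seen, so they do not measure how far that choice made the correlation. Without the 2 strains farthest from the median tilt r was 0.67. The mean of the background bins (r = 0.50, rho = 0.52, adjusted p = 0.003 and 0.0029) and that of the ERCC probe sets (r = 0.54, rho = 0.51, adjusted p = 0.0022 and 0.003) also correlated with the score in permutation tests. Without the 2 farthest strains these were 0.47 and 0.48. The hybridization controls had r = -0.31 and rho = -0.36 (adjusted permutation p = 0.087 and 0.033), with r = -0.41 without the 2 farthest strains. The poly-A controls had r = -0.12 and rho = -0.38 (adjusted permutation p = 0.49 and 0.033), with r = -0.35 without them, so for these the rank and linear measures fell on different sides of 0.05. Array batches are not named in the labels, and the part of the tilt in the gene differences was not tested.

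**Figure D5:**
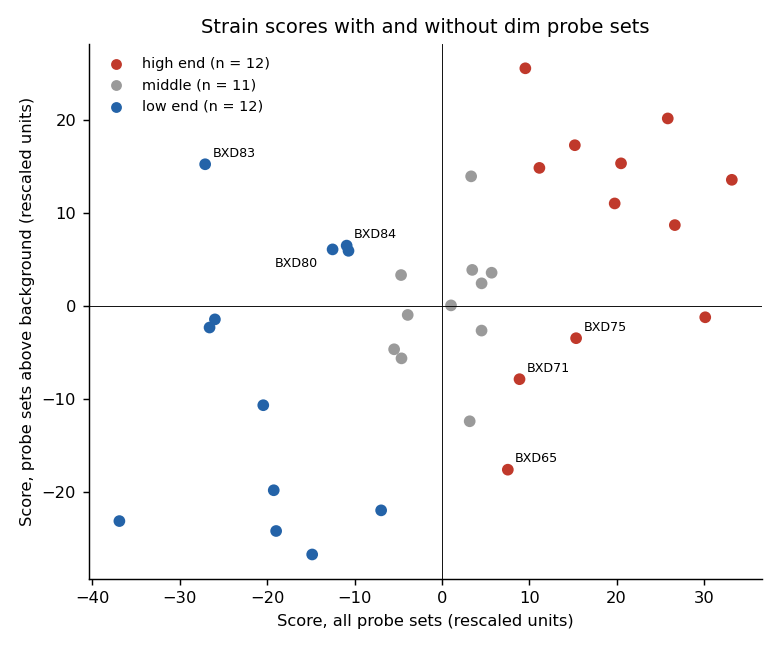
Score of each strain on the first component of all probe sets against its score on the first component of probe sets above background, both in rescaled units. Colours give the ends by all probe sets, and named strains are those at opposite ends in the 2 rankings. Points scatter widely (r = 0.51), and 6 strains change ends.

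How far the ends depend on dim and unnamed probe sets was seen by taking the component anew. Over the 19436 probe sets above background the first component held 12.1% of the variance, and its scores correlated with those above at r = 0.51. Only 14 of the 24 strains kept their end, and 6 crossed to the other. BXD75, BXD71 and BXD65 went from high to low, and BXD84, BXD80 and BXD83 from low to high. This first component of the bright probe sets followed the fast muscle mean at r = 0.90 and the tilt at r = 0.14. The third component of the bright probe sets, oriented in the same way, held 8.24% of the variance. It correlated with the scores from all probe sets at r = -0.73 and with the tilt at r = -0.63. Between the ends of the first bright component the fast muscle list had a median difference of 1.55 units. That of the white fat list was 0.42, of the fibroblast list 0.385 and of the thermogenic core -0.23. *Lep* differed by 0.95 units and *Slc27a2* by -0.96, while *Irf4* differed by -0.08. Probe sets without a symbol gave nearly the same axis as all probe sets (r = 0.965, with 21 strains kept), as did the dim ones (r = 0.96, 22 kept). Probe sets with a symbol did not (r = 0.51, 14 kept). With the tilt regressed out of every probe set before the component was taken, r was 0.47, 14 strains kept their end and 5 crossed.

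The parents lay between the ends. Projected on the component, C57BL/6J had a score of -1.18, with 19 of 35 BXD strains above it, and DBA/2J a score of 6.73, with 12 above it, just outside the high end. Their tilts were 4.76 and 4.71, with 10 and 13 of the 35 BXD strains above them. *Lep* was high in both, at 12.18 in C57BL/6J and 11.94 in DBA/2J. *Slc27a2* stood at 11.76 and 11.86, near the median of the high end. *Il28a* stood at 9.99 in C57BL/6J, within the range of the low end, and at 10.26 in DBA/2J, within that of the high end. With 1 array each, these values have no error and were not tested.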

How the data were processed

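BAT arrays (Affymetrix MoGene 2.0) of 35 BXD strains and 2 parents were used, 1 pooled sample each. The authors deposited 1 table of 41345 probe sets whose values are scores, rescaled by them to set the mean of each array to 8 and its standard deviation to 2. Affymetrix Expression Console is named in the submitters' processing notes. The summary method, log base and genome build are not given in the sources used here. No column was left unused.

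From these scores the component was computed by eigendecomposition (Python 3.11.15, numpy 2.4.6). Members, gene lists and summaries were chosen with earlier results of these data known. The named genes are *Lep*, genes above background without overlap between the ends (up to 15 in each direction, of which 4 were found), list members with the largest differences, and controls past the threshold. Genes named outside this rule were chosen after their values were seen. A few genes that the rule names are included in the counts but not reported here by name. The brightest probe set stood for a gene. Older symbols were matched through RefSeq synonyms. One list, of genes of the mitochondrial genome, had no symbol to match.

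The 190 controls were compared between 12 and 12 strains with limma 3.58.1 (lmFit, eBayes) in R 4.3.3 and Benjamini-Hochberg adjustment at 0.05, after a check on simulated data. Strains are the replicates. Other tests were two-sided permutation tests with 100000 resamples (scipy 1.17.1). The number of arrays limits the precision. Alternatives covered scaling, filters, regression of the muscle mean or the tilt, other ends of 8 or 17 strains, and each strain left out. The tilt was regressed out by a linear fit per probe set over the 35 strains.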

Additional observations from a re-analysis of the deposited data

How the results depend on the processing

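Of the 24 end strains, 24 kept their end with quantile normalization, with centring on the median and with both parents included, and 20 with probe sets scaled to unit SD or the fast muscle mean regressed out. Only 14 did so with probe sets above background, with 1 probe set per gene, and, as alternatives chosen after seeing the data, with named probe sets or with the tilt regressed out. Leaving out each strain in turn kept 21 to 24 and none crossed. The count of 7 non-overlapping probe sets of 41155 became 16 with scaling to unit SD and 15 with muscle regressed out. Among fewer probe sets it was 49 of 19436 above background and 68 of 24657 with 1 probe set per gene. It was 69 of 28392 named and 0 of 12763 unnamed probe sets. These totals differ, so the counts cannot be compared directly. Over all 41155 probe sets the count became 19 with the tilt regressed out and the ends taken anew, and 0 with the ends kept. It was 308 with 8 and 0 with 17 strains per end, and 1 to 14 with a strain left out. With unit SD the white fat median was 0.29 units and the fibroblast median 0.11. *Irf4* turned to 0.12, and *Rbp7* to 0.28, with 1 probe set per gene. *Rbp7* was at 0.34 above background.

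The 0 controls called by limma became 31 with the score of all strains, 11 with quantile normalization and 33 with 8 strains per end. They stayed at 0 with median centring, where 15 of 40 at an unadjusted p under 0.05 were higher against 34 of 41, and with 17 strains. Leaving out an end strain gave 0 to 12 calls, above 0 without BXD43 (9), BXD69 (3), BXD70 (5), BXD75 (12), BXD81 (9) and BXD97 (10). The tilt, chosen after the values were seen, differed by 0.180 to 0.220 units with a strain left out. Permutation tests, which do not allow for that choice, gave p at most 0.0029. With other ends or scalings the difference of the tilt was 0.153 to 0.296 units. It was only 0.043 between the ends taken from probe sets above background, 0.040 with 1 probe set per gene or with named ones, and 0.017 with the tilt regressed out. In SDs of the strains' scores, C57BL/6J lay at -0.08 to 0.13 and DBA/2J at 0.37 to 0.41 under the settings tried. No paired analysis was possible because each strain has a single array and replicate numbers only name strains.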
